A study of Homo sapiens with 2 samples.

Results

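The members described here are the sites of SOX2 PAR-CLIP that fall in a pair of chromosome 19 regions known for their arrays of zinc finger genes. By position on hg19, 1 region takes sites with a start of at least 19800000 and an end below 24500000 in band 19p12 (BED positions), and the other takes sites with a start of at least 52400000, to the end of the chromosome, in 19q13.4. Both strands were included, and the rule uses positions alone. In replicate 1, 177 of 16964 sites were members (31 in 19p12 and 146 in 19q13.4), and in replicate 2, 525 of 55830 (44 and 481). The remaining 1015 and 3936 sites of chromosome 19 served as the comparison.

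In PAR-CLIP, cells take up a photoreactive uridine analogue, long-wave ultraviolet light joins the labelled RNA to bound protein, and the RNA recovered with the protein is sequenced. HEK293T, a human embryonic kidney line carrying the SV40 large T antigen, was transfected with a plasmid for FLAG-tagged SOX2, an HMG-box transcription factor best known for binding DNA. Cells received 0.2 mM 4-thiouridine at 24 hours for a further 16 hours, then 0.4 J/cm2 at 365 nm, and both libraries were made in the same way in independent experiments. SOX2 was thus expressed from a plasmid in both. No library without SOX2 or without crosslinking is used here, so sites that depend on SOX2 cannot be told apart from background. Site lists give no expression levels, so a low number of sites cannot be told apart from low RNA abundance. The cell line was not checked by markers.

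C2H2 zinc finger genes form the largest family of human transcription factor genes, and many lie in tandem arrays on chromosome 19 that grew by duplication. A typical member encodes a KRAB domain, which recruits the corepressor TRIM28 (KAP1), followed by a long row of fingers, all encoded in 1 exon. Each finger with its linker spans 28 codons, so the coding sequence repeats every 84 nt. Many KRAB zinc finger proteins bind and silence transposable elements. The 19p12 array includes ZNF85, ZNF43, ZNF208, ZNF91 and ZNF254, primate-expanded genes close in sequence. The 19q13.4 region mixes zinc finger arrays with other genes, among them the leukocyte receptor genes (LILR and KIR), NLRP genes, ribosomal protein genes and TRIM28 itself.

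The repeat matters for 2 of the measurements below, the spacing of sites and the uniqueness of the sequence, so 3 neighbouring finger units of ZNF85 are shown. They were read 5′ to 3′ from the longest protein-coding transcript of ZNF85 (plus strand) in GENCODE release 29 (positions 786 to 869, 870 to 953 and 954 to 1037 of the transcript), and the capitals mark the linker that joins one finger to the next.
ZNF85 unit 1: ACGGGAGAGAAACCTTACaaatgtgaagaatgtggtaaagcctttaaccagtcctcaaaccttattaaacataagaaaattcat
ZNF85 unit 2: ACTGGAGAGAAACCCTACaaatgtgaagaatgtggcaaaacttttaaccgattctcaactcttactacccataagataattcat
ZNF85 unit 3: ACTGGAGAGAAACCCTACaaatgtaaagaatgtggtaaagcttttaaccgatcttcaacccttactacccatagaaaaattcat
Units 1 and 2 are identical at 70 of 84 positions, units 2 and 3 at 75, and units 1 and 3 at 71. ZNF85 was taken because, within the 19p12 set, it has the longest chain of linkers exactly 84 nt apart (9 of its 12). These units illustrate the gene family; no site of either list was assigned to them.

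No gene was assigned to any site. The lists are on hg19: the last site of chromosome 19 ends at 59097562, beyond 58599801, where the last GENCODE feature of that chromosome ends on GRCh38, the build of the supplied annotation. The gene content was therefore described by gene order alone, with no coordinates carried over. From ZNF682 to ZNF254, the stretch taken for 19p12, GENCODE has 34 protein-coding genes on chromosome 19, and 32 (94.1%) carry a zinc finger symbol (ZNF, ZFP, ZSCAN, ZIM, ZIK or ZBTB with a number). From ZNF649 to the end of the long arm, taken for 19q13.4, 109 of 233 (46.8%) do, against 126 of the other 1205 genes (10.5%). The end genes of both stretches came from general knowledge of the bands, not from the borders of the site regions. By symbol, the label zinc finger cluster thus describes nearly all genes of 19p12 but fewer than 50% of those of 19q13.4, and the comparison region also holds zinc finger genes. Zinc finger genes with other symbols, such as PEG3 in 19q13.4, are not in these counts.

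PAR-CLIP sites were scarce across 19p12. The region held 6.60 sites per Mb in replicate 1 and 9.36 in replicate 2, against 21.3 and 82.5 in the rest of chromosome 19, which makes the rest 3.23-fold denser in replicate 1 and 8.81-fold denser in replicate 2. The ratio of 19p12 to the rest averaged 0.212 ± 0.139 (SD, n = 2 libraries). Counting only 100 kb windows that held a site, in 19p12 and in the rest alike, an alternative added after seeing the data, the mean ratio was 0.425. It spans 7.95% of the chromosome up to the last site, but held 2.60% (95% Wilson interval 1.84 to 3.67) of the chromosome's sites in replicate 1 and 0.986% (0.736 to 1.32) in replicate 2. Both intervals lie below the share of the span. Across 19q13.4 the density was close to that of the rest over its full span, at 21.8 and 71.8 sites per Mb, or 1.02 and 0.870 times the rest. The span of the rest includes most of a stretch without a site across the centromere, 3.89 Mb long in replicate 1 and 3.97 Mb in replicate 2. This stretch lowers the density of the rest, and the ratio of 19q13.4 was not computed without it. Sites of 1 transcript are not independent and reads without molecular identifiers may be copies, so all intervals cover counting error over sites only.

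The 19p12 sites stood in a few stretches of the array in both lists. Of its windows of 0.5 Mb (the last is shorter), 4 of 10 held no site in replicate 1 and 2 of 10 held none in replicate 2, and both of the latter were empty in replicate 1 as well (20300001 to 20800000 and 22300001 to 22800000). The windows from 21300001 to 21800000 held 5 and 14 sites, those from 23300001 to 23800000 held 6 and 11, and those from 23800001 to 24300000 held 11 in each list. Beyond the last site at the centromeric side, at 24310581 in replicate 1 and 24312193 in replicate 2, no site followed for 3.89 and 3.97 Mb, the longest such stretch of the chromosome in both lists. That stretch runs across the centromere. All 6 and 11 sites from 23300001 to 23800000 were on the minus strand, while the window from 23800001 to 24300000 held 8 plus-strand and 3 minus-strand sites in each list.

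**Figure D1:**
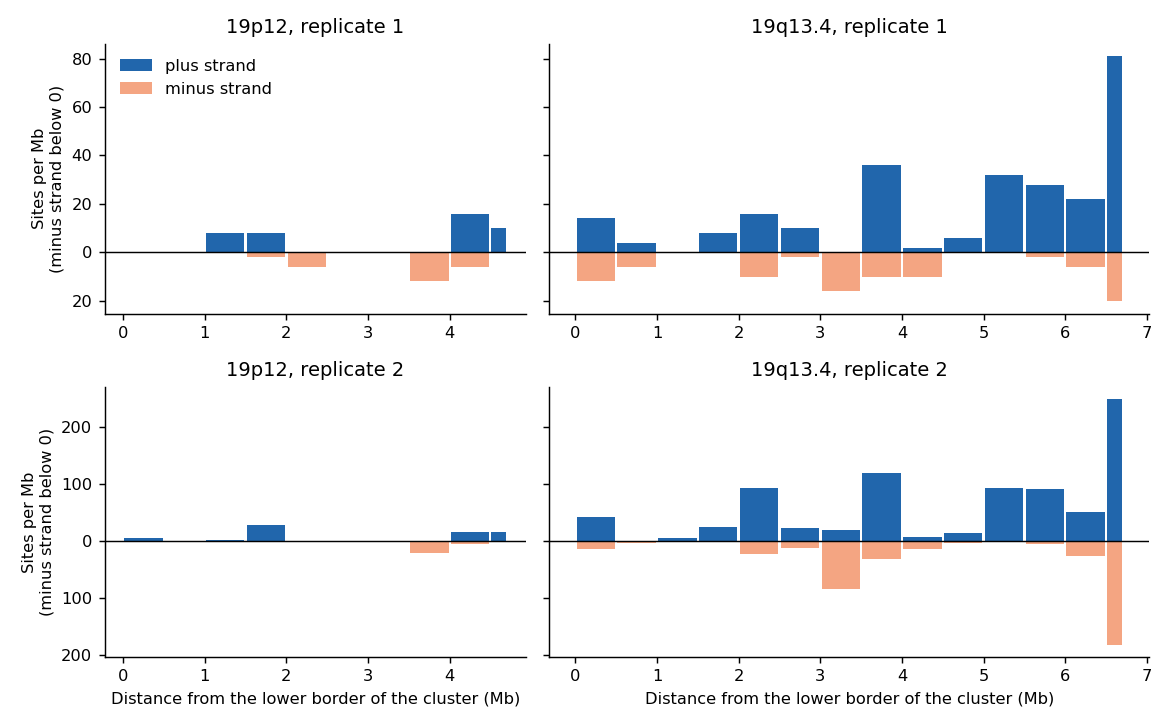
Sites per Mb in windows of 0.5 Mb along 19p12 (left) and 19q13.4 (right), by distance in Mb from the lower border of each region; bars above 0 are the plus strand and bars below 0 the minus strand, and the last bar of each panel is a shorter window. In 19p12 the bars stand in separate groups in both replicates, and in 19q13.4 the last window, with 20 and 85 sites, is the densest.

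Along 19q13.4 the sites followed an order that was similar in both lists. Across the 14 windows Spearman's rho between the lists was 0.87, a description of windows that share genes and RNA abundance. The last window, from 58900001 to 59097562, held 20 sites in replicate 1 and 85 in replicate 2, or 101 and 430 per Mb. The window from 55900001 to 56400000 held 23 and 75 sites, the most by number in replicate 1 and second to the last window in replicate 2. In contrast, the window from 53400001 to 53900000 held 0 and 2 sites, and the one before it, from 52900001 to 53400000, held 5 and 2. Every one of the 16 and 46 sites from 57400001 to 57900000 was on the plus strand, whereas 8 of 8 and 42 of 51 from 55400001 to 55900000 were on the minus strand. Without the last 0.2 Mb, an alternative chosen after seeing the data, 19q13.4 had 0.911 and 0.738 times the density of the rest.

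The lists differed less in size within 19p12 than elsewhere. Replicate 2 listed 1.42 sites (interval 0.900 to 2.24) for each site of replicate 1 in 19p12, 3.29 (2.74 to 3.96) in 19q13.4 and 3.88 (3.62 to 4.15) in the rest of chromosome 19. These ratios come from the same site counts as the densities above and are not a separate line of evidence. Put as a share, 58.7% of the 19p12 sites of both lists together came from replicate 2, against 79.5% in the rest, a difference of -20.8 percentage points (Newcombe interval -32.2 to -10.3). At scores of at least 100, 19p12 had 8 sites in replicate 1 and only 4 in replicate 2, while the rest had 148 and 241. Counting strand bins of 10 kb that held a site in place of sites, 19p12 had 25 in each list, and the rest 712 and 1493.

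**Figure D2:**
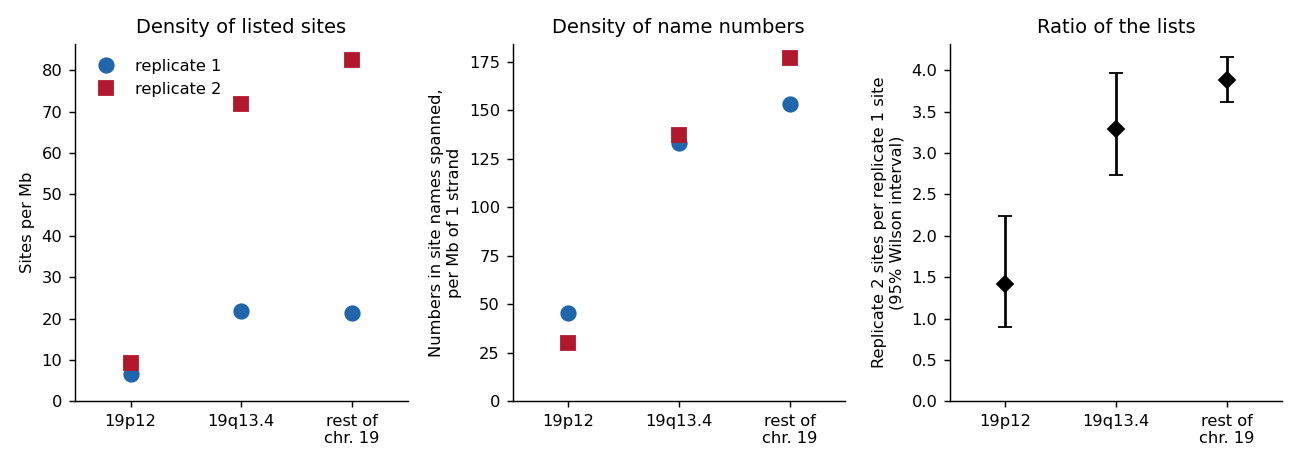
Left, sites per Mb of the full span in 19p12, 19q13.4 and the rest of chromosome 19. Middle, numbers spanned by the site names per Mb of 1 strand, with the length counted between end sites and not over the full span. Right, replicate 2 sites for each replicate 1 site with its 95% Wilson interval. Circles are replicate 1 and squares replicate 2; 19p12 is lowest in all 3 panels, with a ratio of 1.42 against 3.88 in the rest.

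The site names give a second count. Each name holds a running number that rose along the genome on all 50 chromosome strands of both lists, with most numbers missing; no source used here says what the missing numbers stood for. In 19p12 the names spanned 278 numbers in replicate 1 and 200 in replicate 2, or 45.4 and 29.9 per Mb of 1 strand, against 154 and 177 in the rest. These numbers were therefore 3.38-fold and 5.92-fold denser in the rest than in 19p12. The share of numbers that had a listed site was no lower in 19p12 in replicate 1, at 11.2% (interval 7.97 to 15.4) against 7.76% (7.31 to 8.23) in the rest. In replicate 2 it was 21.0% (15.9 to 27.2) against 24.2% (23.6 to 24.9), with overlapping intervals. In 19q13.4 the names spanned 133 and 137 numbers per Mb of 1 strand.

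Sequence shared between genes was highest in the 19p12 set. Per gene, a median of 47.3% (quartiles 42.3 and 56.5, 33 genes) of the 20 nt words of the longest protein-coding transcript also occurred in a transcript of another gene. The median was 16.5% (3.41 and 36.5, 227 genes) in the 19q13.4 set and 4.46% (0.506 and 20.9, 1170 genes) among the other genes of the chromosome. For words of 30 nt the medians were 25.4%, 6.43% and 1.40%. Sites measured 14 nt or more, and the treatment of reads with several matches is not stated. The part of shared sequence in the low density of 19p12 was not tested.

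**Figure D3:**
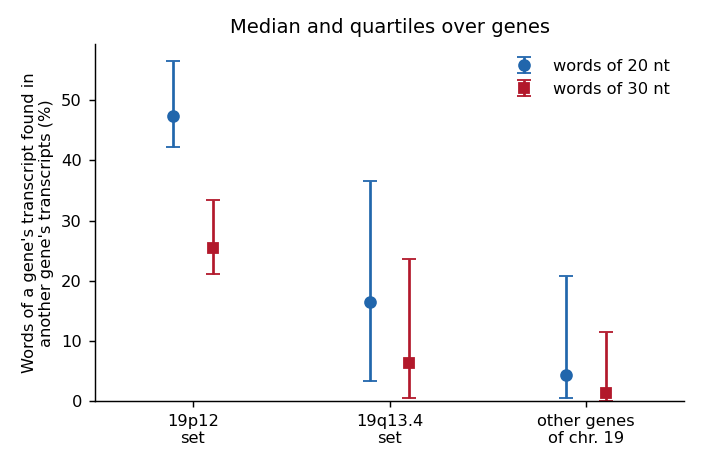
Share of the 20 nt (circles) and 30 nt (squares) words of a gene's longest protein-coding transcript that occur in a GENCODE transcript of another gene, for the 19p12 set, the 19q13.4 set and the other genes of chromosome 19; points are medians over genes and bars run between the quartiles. The 19p12 set lies highest, with medians of 47.3% and 25.4%.

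Scores of member sites, whose meaning the sources do not give, were like those of the rest of the chromosome. The median score was 32 in replicate 1 (quartiles 17 and 63) and 20 in replicate 2 (13 and 33), against 27 and 20 in the rest. Scores of at least 100 were held by 25 of 177 member sites in replicate 1 (14.1%, with 14.6% in the rest of chromosome 19 and 14.8% in the whole list) and by 31 of 525 in replicate 2 (5.90%, with 6.12% in the rest and 7.34% in the whole list). The differences from the rest, -0.457 points (interval -5.40 to 5.78) and -0.218 points (-2.11 to 2.24), were within counting error. In 19p12 alone, 8 of 31 replicate 1 sites reached 100, 11.2 points (-1.10 to 28.8) above the rest, again within counting error. Member sites were short, like those of the rest. Their median length was 15 nt in the first list and 16 nt in the second, against 16 and 17 nt in the rest of the chromosome. The longest members measured 31 and 50 nt.

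The strongest replicate 1 site of chromosome 19 lay in 19p12 and overlapped no replicate 2 site. It covered chr19:24184110-24184124 on the minus strand, scored 10642 and ranked 35 in its list. This site alone took 80.6% of the score sum of 19p12 in replicate 1. The nearest replicate 2 site on the strand lay 420 nt away, at 24183675 to 24183689, and scored 1859, the highest score of both regions in that list. That second position was listed in both replicates, with 513 in replicate 1 (24183675 to 24183692), so replicate 2 scored 3.62-fold higher there. A run of 3 sites in each list, spanning 24183675 to 24185508, held these positions. Its scores were 142, 513 and 10642 in replicate 1 and 56, 290 and 1859 in replicate 2, so all 6 values were above the median of their list.

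Runs of sites on 1 strand were formed by joining sites of both lists up to 10 kb apart. No gene was assigned, so a run can join neighbouring genes or hold only a part of 1 gene. In 19p12 there were 25 runs, of which 9 held sites of both lists, 8 held replicate 1 alone and 8 held replicate 2 alone. The largest ran on the plus strand from 24216276 to 24257253 with 7 sites in each list. Its scores ranged from 13 to 270 in replicate 1 (median 25) and from 10 to 36 in replicate 2 (median 16), and 1 position was shared. The next ran on the minus strand from 23432808 to 23457014 with 3 sites in replicate 1, scoring 42 to 123, and 9 in replicate 2, scoring 10 to 43. None of its sites overlapped between the lists, although both lists held sites in this stretch.

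In 19q13.4 there were 130 runs, 52 of them with sites of both lists, while 397 of 990 (40.1%) were so in the rest of the chromosome. All 3 runs with the most sites in both lists were on the plus strand. The first, from 56146879 to 56225874, held 15 sites in replicate 1 and 43 in replicate 2, with median scores of 48 and 25 and 3 shared positions. The second, from 57795991 to 57819499, held 10 and 28 sites, with 4 shared in each list, and median scores of 32 and 20. The third, from 59056284 to the last site at 59097562, held 8 and 31 sites, with 3 and 4 shared, and median scores of 44 and 27.

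Sites of 19q13.4 favoured the plus strand. In replicate 1, 105 of 146 sites (71.9%, interval 64.1 to 78.6) lay on it, and in replicate 2, 335 of 481 (69.6%, 65.4 to 73.6), against 53.0% and 52.6% in the rest. The differences were 18.9 points (Newcombe interval 10.6 to 26.2) and 17.0 points (12.5 to 21.2). The genes of the 19q13.4 set were near balance, with 124 of 233 (53.2%, interval 46.8 to 59.5) on the plus strand. Counting strand bins of 10 kb that held a site in place of sites, the plus share was 67.6% (58.1 to 75.9) and 62.8% (55.6 to 69.5), against 53.1% and 53.4% in the rest. Without the 5 largest plus-strand runs, a choice made after seeing the data that lowers the share by its construction, it was 60.6% (51.0 to 69.4) in replicate 1 and 57.1% (51.7 to 62.2) in replicate 2. In 19p12 the plus share was 58.1% (40.8 to 73.6) and 63.6% (48.9 to 76.2), which did not differ from the rest beyond counting error.

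Most neighbouring sites less than 10 kb apart were on 1 strand, in the members as in the rest of the chromosome. In 19p12 every neighbour less than 1 kb away was on the same strand, 4 of 4 in replicate 1 and 10 of 10 in replicate 2, and so was every neighbour 1 to 10 kb away, 7 of 7 and 16 of 16. In 19q13.4 it was 21 of 21 and 192 of 208 (92.3%, interval 87.9 to 95.2) below 1 kb, and 83.7% and 87.6% at 1 to 10 kb. The rest had 97.6% and 96.5% (95.6 to 97.3) below 1 kb, and 85.9% and 89.3% at 1 to 10 kb. In replicate 2 the share below 1 kb was thus lower in 19q13.4, with intervals that do not overlap. However, many of its opposite-strand neighbours came from 1 stretch, 59074485 to 59082898, where sites of both strands alternate. Such pairs are not independent, and the lower share was not spread evenly over 19q13.4. For neighbours 10 to 100 kb apart in both regions together, 78.9% (interval 68.0 to 86.8) of 71 were on the same strand in replicate 1 and 73.9% (64.1 to 81.8) of 92 in replicate 2. The rest of the chromosome had 64.8% of 432 and 71.8% of 688, so only in replicate 1 did the value for the rest fall below the interval of the members. A close neighbour, another site of its own list no more than 1 kb away on the strand, was present for 24.9% of members in replicate 1 and 59.4% in replicate 2. The rest had 26.4% and 59.4%, and the whole lists 21.3% and 52.8%. In 19p12 of replicate 2 the share was lower, at 43.2%, by -16.2 points (-29.8 to -1.54) from the rest.

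Spacing by the finger repeat was not detectable. In the reference transcripts the linkers follow the repeat closely: 91.6% of the 227 gaps between linkers in the 19p12 set and 96.7% of the 419 in the 19q13.4 set were multiples of 84 nt. Pairs of member sites on 1 strand, 40 to 1000 nt apart, had starts within 3 nt of a multiple of 84 nt in 3 of 33 pairs in replicate 1 (9.09%, interval 3.14 to 23.6) and in 24 of 314 in replicate 2 (7.64%, 5.19 to 11.1). Evenly spread distances would give 8.01%, and the rest of chromosome 19 had 7.08% (4.33 to 11.3) and 8.39% (7.48 to 9.41). All of these pairs on the repeat lay in 19q13.4, which held 29 of the 33 pairs and 305 of the 314. In its gene set only 57 of 227 genes with a transcript (25.1%) had at least 3 linkers, against 32 of 33 for 19p12. No site was placed in a finger exon, so these pairs cannot show whether sites inside finger repeats follow them. In 19p12 there were only 4 and 9 pairs of sites 40 to 1000 nt apart. Of these, 0 fell on the repeat, which leaves a preference of either kind undetectable at this number.

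**Figure D4:**
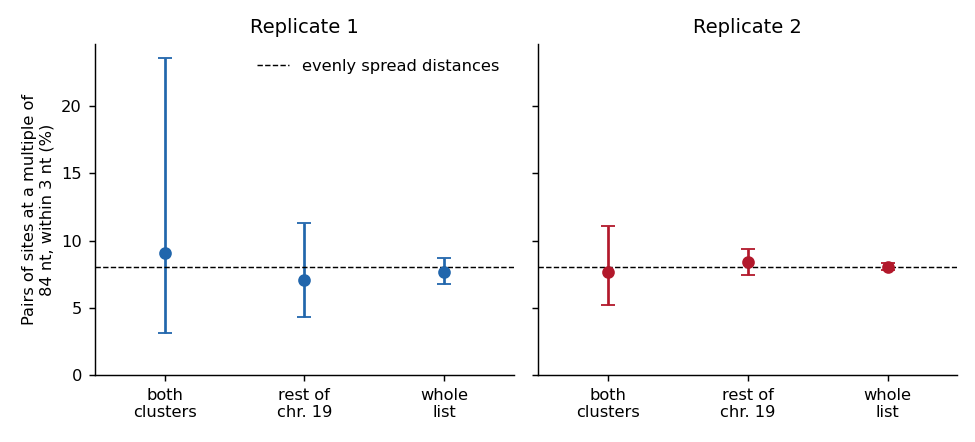
Share of same-strand pairs of sites, 40 to 1000 nt apart, whose start distance lies within 3 nt of a multiple of 84 nt, for the members, the rest of chromosome 19 and the whole list, in replicate 1 (left) and replicate 2 (right); bars are 95% Wilson intervals and the dashed line is 8.01%, the value of evenly spread distances. All 6 intervals include the dashed line.

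Sharing of exact positions between the experiments was close to that of the rest of the chromosome. A site was shared when at least 1 nt overlapped a site of the other list on its strand. Of the members, 38 of 177 sites of replicate 1 were shared (21.5%, interval 16.1 to 28.1) and 39 of 525 of replicate 2 (7.43%, 5.48 to 9.99). The whole lists had 21.3% and 6.50%, and the rest of chromosome 19 had 23.7% and 6.10%. The differences from the rest, -2.27 points (-8.33 to 4.81) and 1.33 points (-0.771 to 3.99), were within counting error and went in opposite directions. In 19p12, 4 sites of each list were shared, or 12.9% (5.13 to 28.9) of replicate 1 and 9.09% (3.59 to 21.2) of replicate 2, which is -10.8 points (-19.1 to 5.31) and 2.99 points (-2.56 to 15.1) from the rest.

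Strong member sites were shared more often than weak ones, and so were strong sites in the rest of the chromosome. In replicate 1, 3 of 56 members with scores below 20 were shared (5.36%, interval 1.84 to 14.6), and 8 of 25 with scores of at least 100 (32.0%, 17.2 to 51.6). In replicate 2 the values were 10 of 262 (3.82%, 2.09 to 6.88) and 9 of 31 (interval 16.1 to 46.6). The rest of the chromosome had 11.2% (8.39 to 14.8) and 1.71% (1.22 to 2.39) below 20. In the class of at least 100 it had 48.6% (40.7 to 56.6) and 29.9% (24.4 to 35.9), and the replicate 1 intervals overlap.

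The lists were also compared at a wider distance of 10 kb. Every overlapping site is also within that distance, so these shares cannot be lower than those at exact positions. No more than 10 kb away on its strand, a site of the other list was present for 83.6% of replicate 1 members and 73.7% of replicate 2 members, against 87.3% and 65.3% in the rest and 76.7% and 61.1% in the whole lists. The difference was -3.67 points (-10.1 to 1.54) in replicate 1 and 8.39 points (4.20 to 12.3) in replicate 2. In 19p12 it was 71.0% in replicate 1, -16.3 points (-34.0 to -3.20) from the rest, and 33 of 44 in replicate 2, 9.68 points (-4.84 to 20.2) from it.

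The 38 replicate 1 members with a partner had related scores in the 2 lists. Spearman's rho was 0.58 across them, a description over sites that share transcripts. Scores in replicate 2 over those in replicate 1 had a median log2 ratio of -0.24 (order-statistic interval -0.93 to 0.05), and 23 sites scored higher in replicate 1, 14 in replicate 2 and 1 the same. In the 241 pairs of the rest the median was -0.09 (-0.28 to 0.18). Only 3 of the 38 (7.89%) differed by more than 4-fold, against 12.9% in the rest.

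**Figure D5:**
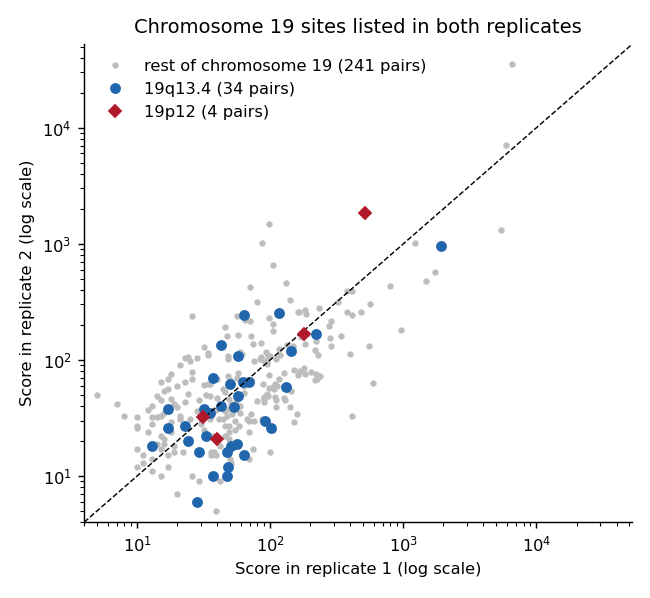
Scores in replicate 1 (x axis) and replicate 2 (y axis), both on log scales, of sites listed in both replicates; diamonds are 19p12, filled circles 19q13.4 and grey dots the rest of chromosome 19, and the dashed line marks equal scores. The 2 members with the highest scores lie on opposite sides of the line, at 513 and 1859 in 19p12 and at 1929 and 964 in 19q13.4.

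The pair that ranked best in both lists lay near the end of the long arm, on the plus strand at chr19:58874919-58874932 in replicate 1 and chr19:58874912-58874929 in replicate 2, with scores of 1929 and 964. It was 2.00-fold higher in replicate 1, and it was followed by the 19p12 pair at 24183675 described above. Only 1 other 19p12 pair reached the best 10, at 21541813 to 21541827 on the plus strand, and its scores of 179 and 166 were nearly equal. The remaining pairs of the best 10 were all on the plus strand of 19q13.4. At 56185880 to 56185899 the replicate 1 score was 117 and the replicate 2 score 253. A pair lay within 1 kb of each other at 59061362 to 59061381, with 220 and 167, and at 59061847 to 59061868, with 57 and 109. The position at 57806606 to 57806621 scored 143 and 119, and the one at 58905882 to 58905896 scored 63 and 245. Identical edges in both lists were seen at 58929618 to 58929635, with 132 and 58. The last of the 10, at 56156908 to 56156930, scored 43 and 134. Each position has a single score in each list, and the differences were not tested.

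The other 2 pairs of 19p12 were weak. They lay on the plus strand at 24309987 to 24310003, with scores of 31 and 32, and at 24241797 to 24241811, with 40 and 21. Strong sites without a partner were found in 19q13.4 too. The minus-strand site at chr19:58640854-58640872 scored 1267 in replicate 1, and the nearest replicate 2 site on the strand lay 41047 nt away. The plus-strand site at chr19:58904775-58904798 scored 1562, the highest of 19q13.4 in replicate 2, with the nearest replicate 1 site 1083 nt away.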

How the data were processed

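The data were 2 site lists, 1 for each PAR-CLIP library, from 1 group. Libraries had 18 cycles of PCR and single-end reads of 50 nt, per the labels' protocols. Tools named in the submitters' processing notes are bcl2fastq and Bowtie 1.1.2, with hg19 as the build. The site caller, its thresholds and the handling of reads with several matches are not given in these sources. Each site carries a score, deposited by the authors without an explanation, always whole and never below 5, and depth is unknown. The members and all measures were chosen with earlier results of these data known.

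Sites were assigned by position and compared in Python 3.11.15 (numpy 2.4.6, pandas 2.3.3, scipy 1.17.1). Shares have 95% Wilson intervals, and differences between shares have Newcombe intervals. No test over samples was run: with 2 libraries of 1 group, an exact two-sided sign test of the differences from the rest cannot go below p = 0.5. Lengths of regions run to the last site of chromosome 19. Sites and runs were named by rule: the 10 overlapping pairs with the best mean rank of score, the strongest site of each list in each region and the 3 runs per region with the most sites in the list with fewer; any other site in the text was picked after its values had been seen. Linkers were found as the codons for threonine, glycine, glutamate, lysine and proline followed by tyrosine or phenylalanine, on the sense strand, in the longest protein-coding transcript of each gene (GENCODE release 29, GRCh38). The overlap, neighbour and spacing code was tested on simulated data. Base composition and genes with sites were planned but not run, since no hg19 genome or annotation was at hand. Alternatives are given in the closing section.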

Additional observations from a re-analysis of the deposited data

How the results depend on the processing

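Of 66 alternative values, 47 stayed within the spread of the libraries or kept their side of the interval and 19 moved. The 47 include the values of each library alone. With 2 libraries these always lie within the SD around the mean, so they say nothing about robustness. In 8, all of scores, neighbours within 1 kb or the 84 nt spacing, the difference from the rest changed sign. The density of both regions relative to the rest, 0.644 on average, was 0.467 with the rest measured by 100 kb windows that held a site and 0.832 with both sides so measured, 0.212 for 19p12 alone and 0.947 for 19q13.4 alone; that of 19p12, 0.212, was 0.425 with both sides so measured, and each library alone gave 0.113 and 0.310. The share of 19p12 sites from replicate 2 stayed below that of the rest in all 5 alternatives, which were added after seeing the data. The plus-strand excess of 19q13.4, 18.0 points, was 12 in strand bins of 10 kb and 5.99 without its 5 largest plus-strand runs. Other differences from the rest moved by more than the SD of the libraries. For scores (-0.338 points) they were 1.72 at a threshold of 50, -0.120 for scores of at least 5 per nt, 7.10 in 19p12 and -1.72 in 19q13.4. For neighbours within 1 kb (-0.759 points) they were -1.92 at 10 kb, -2.95 with the highest-scoring replicate 2 sites and -10.0 in 19p12. For length (-0.385 nt) 19p12 gave -1.09, and for the strand of neighbours (8.08 points) 17.5. For the 84 nt spacing (0.632 points) they were -3.27 with a tolerance of 6 nt, 2.74 for pairs up to 500 nt and -7.73 in 19p12. The cause of these shifts was not tested; 19p12 holds few sites. No paired analysis was possible because both libraries belong to 1 group. The effect of depth on weak sites was not measured, since depth is unknown.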

Other observations

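The running numbers in the site names reached 248010 in replicate 1 and 235517 in replicate 2, so the lists spanned similar ranges of numbers. Of these, 16741 (6.75%) had a listed site in replicate 1 and 52377 (22.2%) in replicate 2. Within chromosome 19 outside the members, the numbers spanned were 12943 and 15088, while the numbers with a listed site were 1004 and 3658. Over 19q13.4 the spans were 1726 and 1827 numbers, with 142 and 454 listed. In 19p12 the order was the other way round, with 278 numbers spanned in replicate 1 and 200 in replicate 2.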
